A study of Sus scrofa with 10 samples.

Results

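The cells described here are the LHX6 cortical interneurons of the fetal pig medial entorhinal cortex (MEC). They were chosen by their raw counts of unique molecular identifiers (UMIs), where 1 UMI stands for 1 captured RNA molecule. A cell was taken as an LHX6 cell if it held at least 1 UMI of LHX6 and at least 2 UMIs of GAD1 and GAD2 together. By this rule 270 of the 24940 fetal cells were LHX6 cells, in a series of 28229 cells. Of the 270 cells, 164 held a single LHX6 UMI and 106 held 2 or more.

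LHX6 encodes a LIM homeodomain transcription factor that is switched on in interneurons born in the medial ganglionic eminence (MGE), the ventral forebrain zone that sends SST and PVALB interneurons to the cortex. It acts below NKX2-1, which cortical interneurons of the MGE switch off, and above SOX6, SATB1 and MAF, which guide their migration and maturation. GAD1 and GAD2 encode the enzymes that make GABA. Interneurons of the caudal ganglionic eminence (CGE) share GAD1, GAD2 and the DLX genes, lack LHX6 for the most part, and carry NR2F2, PROX1 and ADARB2 instead.

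The fetal cells came from 8 libraries of crossbred pig fetuses. There was 1 library of whole cells at embryonic day 50 (E50_1, 3 pooled brains) and 1 library of nuclei at E70 (E70_nc, 1 brain). Whole cells at E60 gave 3 libraries (E60_1 and E60_2 of 1 brain each, E60_3 of 2) and whole cells at E70 gave 3 more (E70_1 of 2 brains, E70_2 and E70_3 of 1 each). These brain numbers are those of the labels, and the study's own sample table differs for E70_1 and E70_3. No animal was treated or genetically altered. Cells of a library share their brains and their capture, so the library was the unit of every comparison. The summed UMIs of a library lay between 3089188 and 55755512, and 333 barcodes occurred in at least 2 fetal libraries, 12 of them on LHX6 cells.

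LHX6 cells were spread unevenly over the libraries. E50_1 held 23 of them among 5506 cells (0.418%). In the E60 libraries there were 6 of 8171 cells in E60_1 (0.0734%), 2 of 3479 in E60_2 (0.0575%) and 69 of 2696 in E60_3 (2.56%). In the E70 libraries there were 36 of 493 cells in E70_1 (7.30%), 55 of 617 in E70_2 (8.91%), 64 of 3120 in E70_3 (2.05%) and 15 of 858 nuclei in E70_nc (1.75%). The median depth of the LHX6 cells ranged from 3154 UMIs in E70_nc to 23773 in E60_2.

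LHX6 was not specific to GAD cells in every library. In E60_3, 25.7% of the cells at the GAD threshold held LHX6 (exact binomial 95% interval 20.5 to 31.3), against 2.2% of the cells with no GAD1 or GAD2 UMI (1.64 to 2.90). E70_3 gave nearly the same pair, with 24.4% (19.3 to 30.1) against 1.94% (1.45 to 2.55), and E70_nc gave 15.8% (9.12 to 24.7) against 2.21% (1.24 to 3.61). In these 3 libraries the GAD cells stood far above the cells without GAD UMIs. The share in cells without GAD UMIs is called the background here, and what put LHX6 UMIs in those cells was not tested.

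E70_1 and E70_2 stood apart from the other libraries. LHX6 was found there in 29.7% (24.9 to 34.9) and 37.0% (32.4 to 41.7) of the cells without a GAD UMI, against 47.4% (35.8 to 59.2) and 60.4% (49.6 to 70.5) of the GAD cells. It was also found in 40.0% and 42.1% of the cells with microglia markers and in 23.8% and 44.6% of those with excitatory neuron markers. The median depth of the cells without GAD UMIs was 9284 and 9475 UMIs, close to the 9105 and 7869 of the GAD cells. Over all cells, the lower LHX6 level of both libraries was 1.97 higher on the log2 scale than the higher level of E60_3 and E70_3 (with 5 CPM added to each), rank 335 of 22452 genes, and 78 other genes were at least 8-fold higher there. GAD cells were still above the rest, also when thinned to 3000 UMIs, at 20.8% against 10.3% in E70_1 and 36.8% against 15.7% in E70_2. The 91 LHX6 cells of E70_1 and E70_2 cannot be told from this background cell by cell, so results are given below with and without them.

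In E60_1 and E60_2 the LHX6 share of the GAD cells was 1.89% and 0.962%, close to the 0.905% and 1.84% of cells without GAD UMIs. Their 8 LHX6 cells are at the background and are counted but not described further. In E50_1 the share among GAD cells was 3.36%, and it differed with the DLX genes, homeobox genes of many forebrain GABA neurons. Of the 47 GAD cells of E50_1 with a UMI of DLX1, DLX2, DLX5 or DLX6, 34.0% held LHX6, against 1.10% of the 638 without one. The latter is close to the background of 1.4%, and 7 of the 23 LHX6 cells of E50_1 come from it. Over all fetal libraries 191 LHX6 cells held a DLX UMI and 79 held none.

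**Figure D1:**
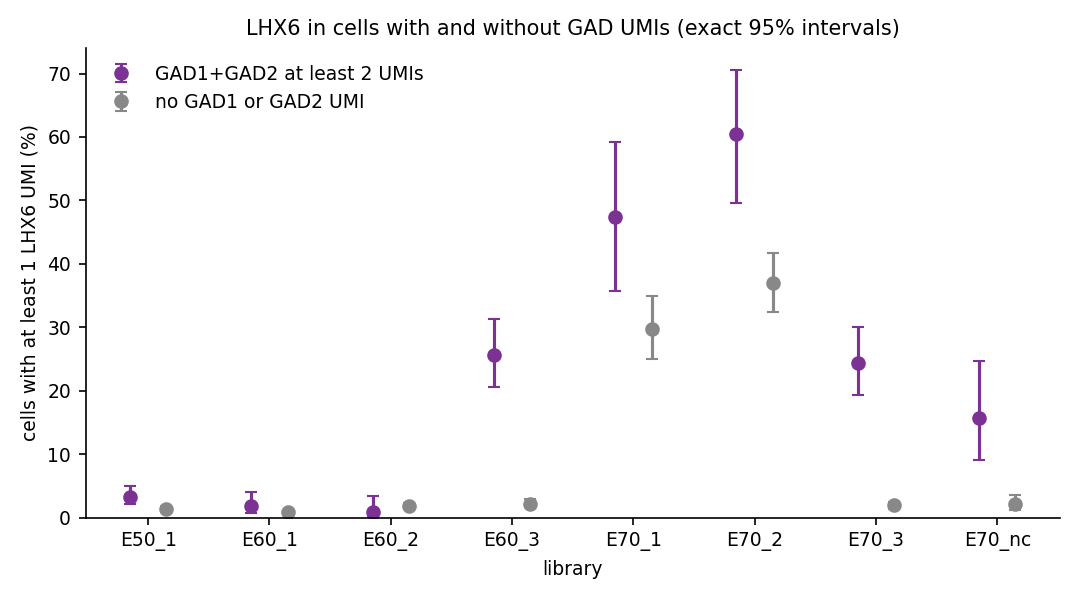
Share of cells with at least 1 LHX6 UMI (y axis, percent) in each fetal library (x axis), among cells with at least 2 UMIs of GAD1 and GAD2 (purple) and among cells with none (grey). Bars are exact 95% binomial intervals, which cover counting error only. E60_3, E70_3 and E70_nc show a wide gap (25.7% against 2.2% in E60_3), while in E70_1 and E70_2 the cells without GAD UMIs reach 29.7% and 37.0%.

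The label was checked against SOX6 and MAF, a pair of transcription factors of maturing MGE interneurons that the rule did not use. Both were found together in 73.9% of the LHX6 cells of E60_3 and in 70.3% of those of E70_3. Among the cells at the GAD threshold that held a DLX UMI and no LHX6 UMI, called DLX cells from here on, the shares were 33.5% and 26.5%. In E50_1 they were 43.5% of LHX6 cells against 3.23% of DLX cells. When every cell was thinned to 3000 UMIs before the thresholds were applied, E50_1 kept only 3 LHX6 cells. In E60_3 the shares were then 42.9% of 14 LHX6 cells against 23.4% of 77 DLX cells. In E70_3 they were 51.5% of 33 against 18.0% of 89. By these markers the label fits the cells of E60_3 and E70_3. In E70_1 and E70_2 shares and levels went apart. A level is a sum of UMIs, so the deepest cells weigh most in it. The LHX6 cells of E70_1 included cells of 230571, 174693 and 127482 UMIs, each with 0 DLX UMIs, beside a median of 10585. Those of E70_2 included 1 of 109430 UMIs, also with 0 DLX UMIs, beside a median of 8373. Their levels are thus not those of a typical cell. The pair was found in 63.9% of LHX6 cells against 27.6% of DLX cells in E70_1 and in 58.2% against 44.8% in E70_2. SOX6 stood at 232 against 237 CPM and 374 against 415 CPM, and MAF at 40.1 against 68.8 CPM and 143 against 150.3 CPM. Thinned to 3000 UMIs, the pair was in 1 of 5 LHX6 cells against 2 of 10 DLX cells in E70_1 and in 5 of 14 against 5 of 12 in E70_2. Near the threshold, the 10 LHX6 cells of E60_3 with 1 LHX6 and 2 GAD UMIs had SOX6 at 217 UMIs per 1000000 UMIs of the summed cells (CPM) and MAF at 143 CPM. The 12 cells of E60_3 just outside it, with LHX6 and 1 GAD UMI, had SOX6 at 116 CPM and MAF at 60.5 CPM. In E70_3 the 5 cells just inside had SOX6 at 199.9 CPM and MAF at 133 CPM, and the 18 just outside had 312 CPM and 100.4 CPM. Cells with no GAD UMI had SOX6 at 192 CPM in E60_3 and 201 CPM in E70_3, and MAF at 28.6 and 16.6 CPM, so near the threshold MAF stood above that level on both sides and SOX6 did not do so throughout.

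The levels of the genes that chose the cells are given as a description. LHX6 stood at 116 CPM in the LHX6 cells of E50_1, 103 CPM in E60_3 and 227 CPM in E70_3. It stood at 62.8 CPM in E70_1, 143 CPM in E70_2 and 346 CPM in the nuclei of E70_nc. GAD2, at 225 CPM in E60_3 and 408 CPM in E70_3, was higher than GAD1, at 109 and 212 CPM. In the RefSeq annotation of Sscrofa11.1 the LHX6 gene lies on the minus strand of chromosome 1 from 262297557 to 262322777.

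To ask what sets LHX6 cells apart from the other forebrain interneurons of the same tissue, their summed counts were compared with those of the DLX cells, library by library. Only 5 libraries had at least 20 cells of each kind (E50_1, E60_3, E70_1, E70_2 and E70_3), with 247 LHX6 cells and 418 DLX cells. The test was edgeR's quasi-likelihood test with the library as a block, over 8476 genes, with p-values adjusted by the Benjamini-Hochberg method. SST alone passed an adjusted p of 0.05, so 0.0118% of all genes tested were called, and 500 genes had an unadjusted p under 0.05. Over only E50_1, E60_3 and E70_3, where LHX6 was rare outside GAD cells, 5 of 9161 genes passed (0.0546%). SST, ID3 and APOA1 were higher (0.0327% of genes) and THRB and ADARB2 were lower (0.0218%). These 3 libraries, with 156 LHX6 cells and 360 DLX cells, are used below unless stated, and were singled out after the data were seen. E60_3 and E70_3 cells were of like depth on both sides, with medians of 7382 and 5247.5 UMIs in LHX6 cells and 6752 and 5643.5 in DLX cells.

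**Figure D2:**
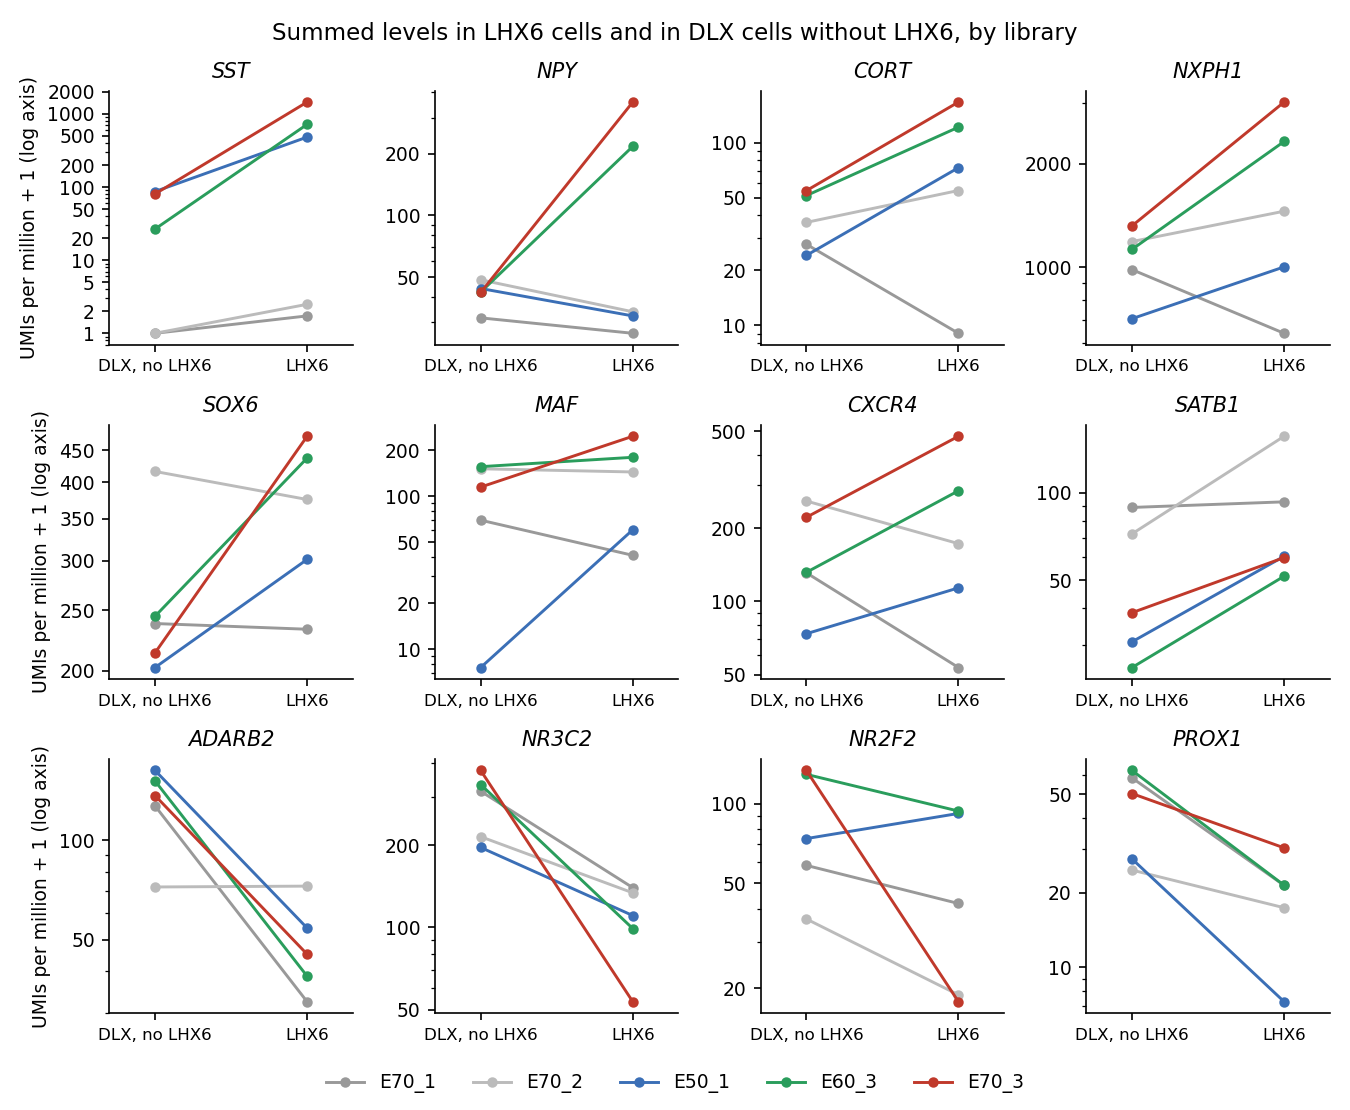
Summed level of 12 genes (y axis, CPM plus 1, log axis with its own range for each gene) in DLX cells without LHX6 and in LHX6 cells (x axis), joined by library. E50_1, E60_3 and E70_3 are in color and E70_1 and E70_2, where LHX6 was common outside GAD cells, in grey. SST and CORT rise to the right in the 3 colored libraries and ADARB2 and NR3C2 fall, while NPY falls slightly in E50_1.

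Among the neuropeptides, SST, which encodes somatostatin, the peptide of a main class of MGE interneurons, showed the largest difference. Its level was 482 CPM in the LHX6 cells of E50_1, 720 CPM in E60_3 and 1454 CPM in E70_3, against 85.9, 25.7 and 79.6 CPM in the DLX cells. LHX6 cells were thus above DLX cells in all 3 libraries, where 13.0% of all genes were. The log2 fold change was 4.0 ± 0.36 (SE, n = 3 libraries) with an edgeR adjusted p of 0.0177. Over 5 libraries it was 4.0 ± 0.33 with an adjusted p of 0.000254. SST was nearly absent from E70_1 and E70_2, at 0.730 and 1.49 CPM in LHX6 cells (1 UMI in each library) and 0 in DLX cells. In the nuclei it was 72.0 CPM against 28.9 CPM.

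SST was carried by few LHX6 cells. A single cell held 109 of the 154 SST UMIs in the LHX6 cells of E50_1 (70.8%), 524 of 668 in E60_3 (78.4%) and 584 of 692 in E70_3 (84.4%). The cell in E60_3 had 68150 UMIs in all, well above the median, with 1 LHX6 and 8 DLX UMIs, and the cell in E70_3 had 20262, with 3 LHX6 and 4 DLX UMIs. The cell in E50_1 had 7926 UMIs, 1 of LHX6 and 0 of the DLX genes. None of these cells was called a doublet by Scrublet, which marked only 9 of the 2696 cells of E60_3, so the call says little for its cell of 68150 UMIs. Without the top SST cell on each side the levels were 144 against 50.4 CPM in E50_1, 167 against 9.94 CPM in E60_3 and 237 against 50.6 CPM in E70_3. LHX6 cells remained higher in each library, with a log2 fold change of 2.82 ± 0.31 and an edgeR adjusted p of 0.00126. That fit left out the top cell of every gene, was added after the data were seen, and called 34 of 8248 genes (0.412%).

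The share of cells with any SST UMI gave no such order. It was 34.8% of LHX6 cells against 29.0% of DLX cells in E50_1, 15.9% against 7.19% in E60_3 and 7.81% against 9.88% in E70_3. The exact intervals overlapped in each library, and 12.8%, 1.93% and 2.33% of the cells without GAD UMIs also held an SST UMI. Cells with at least 10 SST UMIs made up 3 of 23 LHX6 cells against 1 of 31 DLX cells in E50_1, 5 of 69 against 1 of 167 in E60_3 and 3 of 64 against 2 of 162 in E70_3. LHX6 cells and DLX cells thus differed in SST by a few cells with many UMIs, while the shares with any SST UMI overlapped. SST was also common in GAD cells outside both groups. All GAD cells without LHX6, with or without a DLX UMI, held 459 CPM in E50_1, close to the 482 CPM of the LHX6 cells, and against them SST was not called over 5 libraries (log2 fold change 2.80, edgeR adjusted p of 0.523).

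**Figure D3:**
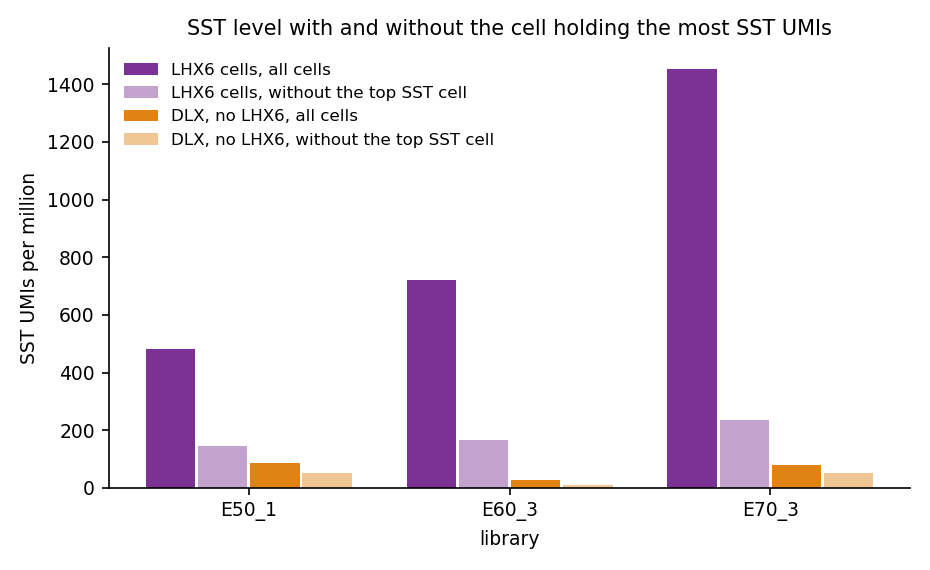
SST level (y axis, CPM) in E50_1, E60_3 and E70_3 (x axis) in LHX6 cells (purple) and DLX cells without LHX6 (orange). Dark bars are all cells and pale bars leave out the cell with the most SST UMIs, after which E70_3 falls from 1454 to 237 in LHX6 cells and stays above the 50.6 of DLX cells.

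The SST gene lies on the minus strand of chromosome 13 from 125337560 to 125338742 of Sscrofa11.1. CORT, which encodes the related peptide cortistatin, lies on the plus strand of chromosome 6 from 70716630 to 70717980. The 200 bases before the annotated start of each are shown, 5′ to 3′ on the gene's strand, because these related peptide genes were both higher in LHX6 cells. Capitals mark the cyclic AMP response element, TGACGTCA, the site through which SST is known to be induced. The LIM homeodomain core TAATTA was searched as well, with both motifs on both strands.
SST, chr13:125338743-125338942, minus strand: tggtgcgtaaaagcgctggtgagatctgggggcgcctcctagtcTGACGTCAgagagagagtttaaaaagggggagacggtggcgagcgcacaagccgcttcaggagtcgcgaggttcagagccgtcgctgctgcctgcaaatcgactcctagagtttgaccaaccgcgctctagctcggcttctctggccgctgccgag
CORT, chr6:70716430-70716629, plus strand: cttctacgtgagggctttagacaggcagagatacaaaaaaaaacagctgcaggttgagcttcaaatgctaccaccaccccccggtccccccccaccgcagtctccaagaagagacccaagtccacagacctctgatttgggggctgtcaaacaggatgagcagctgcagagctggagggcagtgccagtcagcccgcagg
The SST window holds the element, starting 156 bases before the annotated start, and the CORT window does not. Of 19544 such windows in the pig genome, 1.55% hold TGACGTCA and 2.7% hold TAATTA, which is in neither of these windows. A match or its absence describes the letters only.

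CORT differed in both level and share of cells. It stood at 72.0 CPM in the LHX6 cells of E50_1, 121 CPM in E60_3 and 166 CPM in E70_3, against 23.1, 50.3 and 53.6 CPM in DLX cells. In the summed counts the log2 fold change of 1.47 ± 0.22 missed the threshold, with an edgeR adjusted p of 0.1. A CORT UMI was found in 43.5% of LHX6 cells against 12.9% of DLX cells in E50_1, 53.6% against 21.0% in E60_3 and 43.8% against 16% in E70_3. Under 1% of the cells without GAD UMIs held it (0.792%, 0.450% and 0.457%). To weigh every cell alike, edgeR was also run on the number of cells with a UMI of each gene in place of the sum, an alternative chosen after the data were seen. The p-values of the count of cells did not follow the spread between libraries alone, so its calls do not stand for replicate libraries. In that fit 20 of 8116 genes passed (0.246%), and CORT had the smallest adjusted p (0.000178, log2 fold change 1.38 ± 0.20). It also passed over 5 libraries, with an adjusted p of 0.000765, where 11 genes (0.148%) were called, 3 of them higher in LHX6 cells (0.0404%). SST was not among the genes tested in these fits.

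NPY, the peptide of the long-range and neurogliaform interneurons of the MGE, was less even. It was 217 CPM in the LHX6 cells of E60_3 and 357 CPM in those of E70_3, against 41.2 and 41.0 CPM in DLX cells, but 31.3 against 43.0 CPM in E50_1. Without the top NPY cell on each side it was 26.1 against 20.2 CPM in E50_1. NPY UMIs were in 34.8%, 37.7% and 12.5% of the LHX6 cells of E50_1, E60_3 and E70_3. In DLX cells the shares were 16.1%, 18.6% and 7.41%, with overlapping intervals in E50_1 and E70_3. Cells without GAD UMIs held NPY in 17.7%, 13.9% and 3.89%. One cell held 120 of the 201 NPY UMIs in E60_3, and was called a doublet by Scrublet, and another held 148 of 170 in E70_3. NPY did not pass in the summed counts (log2 fold change 2.32 ± 0.45, edgeR adjusted p of 0.212). Nor did it pass in the count of cells (0.90 ± 0.27, edgeR adjusted p of 0.418). CRH, which encodes corticotropin-releasing hormone, was lower in LHX6 cells, at 0, 28.0 and 10.5 CPM against 59.5, 47.6 and 124 CPM, without passing (adjusted p of 0.494). Of the 11 listed peptide genes 5 could be tested, with a median log2 fold change of 1.47 beside 0.00 over all genes.

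Among the 12 transcription factors listed for the MGE lineage, 9 were tested and none passed in the summed counts. Of the 9 estimates 6 were positive and 3 negative. SOX6, MAF, SATB1 and CUX2, 4 in all, were higher in LHX6 cells in all 3 libraries, where 13.0% of all genes were. Only 1, ST18, was lower in all 3, where 14.5% of all genes were. ST18 stood at 46.9 against 66.1 CPM in E50_1, 64.6 against 140 CPM in E60_3 and 84.0 against 142 CPM in E70_3. Its log2 fold change was −0.86 ± 0.22, with an edgeR adjusted p of 0.431. SOX6, which positions migrating MGE interneurons, was 300 CPM against 202 CPM in E50_1, 436 against 244 CPM in E60_3 and 473 against 213 CPM in E70_3 (log2 fold change 0.89 ± 0.17, edgeR adjusted p of 0.190). It passed when LHX6 cells, like DLX cells, had to hold a DLX UMI (1.06 ± 0.16, adjusted p of 0.0152). That stricter rule, added after the data were seen, called 24 of 8607 genes (0.279%).

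MAF, a bZIP factor of maturing MGE interneurons, passed in the count of cells, with a log2 fold change of 0.87 ± 0.13 and an edgeR adjusted p of 0.00210. It was found in 43.5% of LHX6 cells against 6.45% of DLX cells in E50_1, 81.2% against 49.7% in E60_3 and 79.7% against 40.1% in E70_3. In cells without GAD UMIs the shares were 6.45%, 11.7% and 7.17%. The level of MAF differed less, at 59.4 against 6.61 CPM, 179 against 155 CPM and 246 against 114 CPM in the same order (0.84 ± 0.32, adjusted p of 0.805). SATB1, a chromatin organizer that SST interneurons need, was 59.4 against 29.7 CPM, 50.6 against 24.1 CPM and 58.8 against 37.7 CPM, and did not pass. In the nuclei SATB1 stood at 1123 CPM against 125 CPM, with no replicate library. CUX2, a homeobox factor, was 200.4 against 97.4 CPM in E60_3 and 199.6 against 121 CPM in E70_3, without passing.

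Genes of the early MGE were near or at 0. NKX2-1 reached at most 1.49 CPM and LHX8 at most 2.10 CPM in the LHX6 cells of the 5 libraries. ELFN1 was at 0 in every library, also in DLX cells, which in these counts says only that no UMI was assigned to it. PVALB, the calcium-binding protein of fast-spiking interneurons, stood at 0, 2.15 and 2.10 CPM in the LHX6 cells of E50_1, E60_3 and E70_3.

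Of the surface and secreted genes listed for MGE cells, NXPH1 stood out. It encodes neurexophilin 1, a secreted ligand of neurexins. NXPH1 was 1001 CPM against 707 CPM in E50_1, 2323 against 1126 CPM in E60_3 and 3025 against 1319 CPM in E70_3. It was found in 95.7%, 97.1% and 98.4% of LHX6 cells and in 61.3%, 65.9% and 59.3% of DLX cells. Nearly every LHX6 cell of these libraries thus held NXPH1. It was also common outside GAD cells, at 34.5%, 50.2% and 41.3%. In cells thinned to 3000 UMIs the shares were 100% of 14 LHX6 cells against 58.4% of 77 DLX cells in E60_3. They were 97.0% of 33 against 57.3% of 89 in E70_3. NXPH1 missed the threshold in the summed counts (0.94 ± 0.14, edgeR adjusted p of 0.103) and passed in the count of cells (adjusted p of 0.0385) and with DLX needed on both sides (1.13 ± 0.13, adjusted p of 0.00323). Over 5 libraries its estimate was 0.52 ± 0.21, with an adjusted p of 0.813.

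The nuclei held 8858 CPM of NXPH1 in LHX6 cells and 3756 CPM in DLX cells, and E70_2 held 1455 against 1186 CPM. E70_1 went the other way, with 641 against 983 CPM of NXPH1, while 100% of its cells on both sides held NXPH1. ERBB4, the neuregulin receptor that most cortical interneurons use to migrate, was at or above 1104 CPM in the LHX6 cells of the 3 libraries and differed little from DLX cells (−0.25 ± 0.11, edgeR adjusted p of 0.949). The glutamate receptor genes GRIA1 (0.44 ± 0.16) and GRIK1 (0.67 ± 0.25) did not pass.

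**Figure D4:**
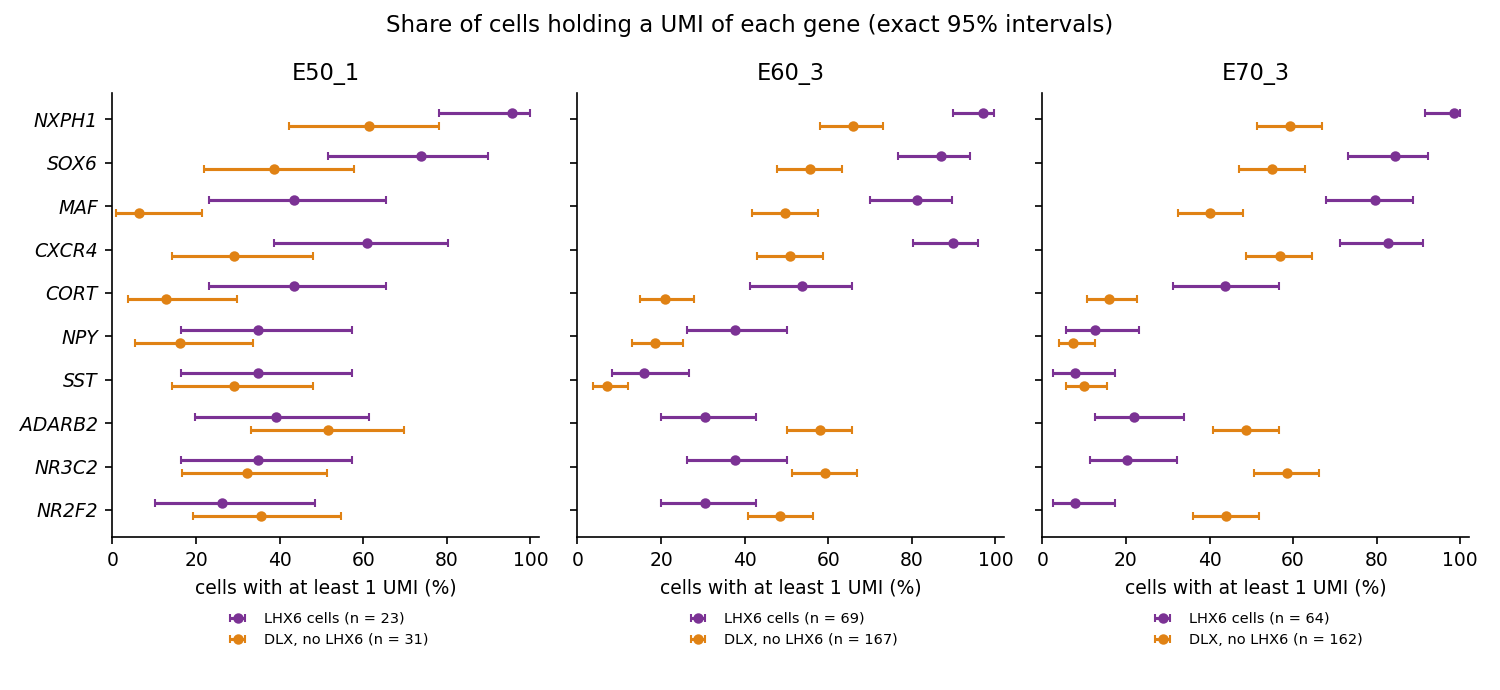
Share of cells with at least 1 UMI (x axis, percent, exact 95% intervals for counting error) for 10 genes (y axis) in LHX6 cells (purple) and DLX cells without LHX6 (orange) of E50_1, E60_3 and E70_3. NXPH1, SOX6, MAF, CXCR4, CORT and NPY lie to the right in LHX6 cells in every panel, with NPY intervals overlapping in E50_1 and E70_3. ADARB2 and NR2F2 lie to the left, at 21.9% against 48.8% and 7.81% against 43.8% in E70_3, and the SST intervals overlap.

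Among 14 migration genes, all tested, CXCR4 had the smallest p in the 3 libraries. It encodes the receptor for CXCL12 that keeps migrating interneurons in their streams. CXCR4 was 113 against 72.7 CPM in E50_1, 283 against 131 CPM in E60_3 and 475 against 220 CPM in E70_3 (1.03 ± 0.17, edgeR adjusted p of 0.148). It passed in the count of cells, with an adjusted p of 0.0263, where 60.9%, 89.9% and 82.8% of LHX6 cells held it against 29.0%, 50.9% and 56.8% of DLX cells. The shares in cells without GAD UMIs were 22.2%, 13.0% and 13.1%. PLXNA2, a semaphorin co-receptor, passed in the same fit (0.69 ± 0.11, adjusted p of 0.0319) but its level was lower in LHX6 cells in E60_3, at 192 against 252 CPM. None of the 14 passed in the summed counts, and their median log2 fold change was 0.15. In E70_1 and E70_2 the level of CXCR4 was lower in LHX6 cells, at 52.6 against 130 CPM and 172 against 257 CPM. The share of cells with a CXCR4 UMI was not lower there. It was 27 of 36 LHX6 cells against 14 of 29 DLX cells in E70_1. In E70_2 it was 36 of 55 against 17 of 29, and the exact intervals overlapped in both libraries.

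Of 12 genes listed for the CGE, 7 were tested and 1, ADARB2, passed and was lower in LHX6 cells. The median log2 fold change of the 7 was −0.87 beside 0.00 over all genes, and 4 were lower in all 3 libraries, where 14.5% of all genes were. ADARB2, an RNA-editing enzyme homologue that marks CGE interneurons, was 53.2 against 162 CPM in E50_1, 37.7 against 150 CPM in E60_3 and 44.1 against 136 CPM in E70_3. Its fall of 1.76 ± 0.22 on the log2 scale passed, with an edgeR adjusted p of 0.0429. Over 5 libraries the adjusted p of ADARB2 was 0.0865, with 31.4 against 126 CPM in E70_1 and 71.6 against 71.2 CPM in E70_2. An ADARB2 UMI was found in 39.1%, 30.4% and 21.9% of LHX6 cells against 51.6%, 58.1% and 48.8% of DLX cells, and in 15.6%, 19.7% and 17.9% of cells without GAD UMIs.

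NR3C2, the mineralocorticoid receptor gene, was 109 against 195 CPM in E50_1, 98.0 against 332 CPM in E60_3 and 52.5 against 374 CPM in E70_3. It was lower in LHX6 cells in all 5 libraries, with an edgeR adjusted p of 0.148 over 3 libraries and 0.0865 over 5. NR3C2 passed in the count of cells over both sets (0.0166 and 0.0124) and with DLX needed on both sides (−2.08 ± 0.22, 0.00290). An NR3C2 UMI was found in 37.7% of LHX6 cells against 59.3% of DLX cells in E60_3 and 20.3% against 58.6% in E70_3. In E50_1 the share was not lower in LHX6 cells, at 34.8% against 32.3%. NR2F2, the COUP transcription factor of CGE-derived interneurons, passed in the count of cells (−1.18 ± 0.21, adjusted p of 0.00491). It was found in 26.1%, 30.4% and 7.81% of LHX6 cells against 35.5%, 48.5% and 43.8% of DLX cells, the widest gap being in E70_3. Cells without GAD UMIs held NR2F2 in 28.1%, 47.5% and 27.1%, which in E60_3 and E70_3 was above the LHX6 cells. The level of NR2F2 in E50_1 was 90.7 against 72.7 CPM, but 1 LHX6 cell of 96063 UMIs held 16 of its 29 UMIs. Without the top NR2F2 cell on each side it was 58.1 against 60.8 CPM. That LHX6 cell, with 0 DLX UMIs, also held 11 of the 37 LHX6 UMIs and 26 of the 35 NR3C2 UMIs of the E50_1 LHX6 cells. Without the top NR3C2 cell on each side NR3C2 was 40.3 against 146 CPM.

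PROX1, a homeobox factor that CGE interneurons keep, was 6.26 against 26.4 CPM in E50_1, 20.5 against 61.5 CPM in E60_3 and 29.4 against 49.4 CPM in E70_3, without passing (−1.30 ± 0.33, edgeR adjusted p of 0.431). VIP and HTR3A, markers of mature CGE classes, were at or under 1.08 CPM in the LHX6 cells of these 3 libraries, and SP8 was at 0 in both kinds of cell. CALB2 was the CGE gene tested that had a positive estimate (0.44 ± 0.51).

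**Figure D5:**
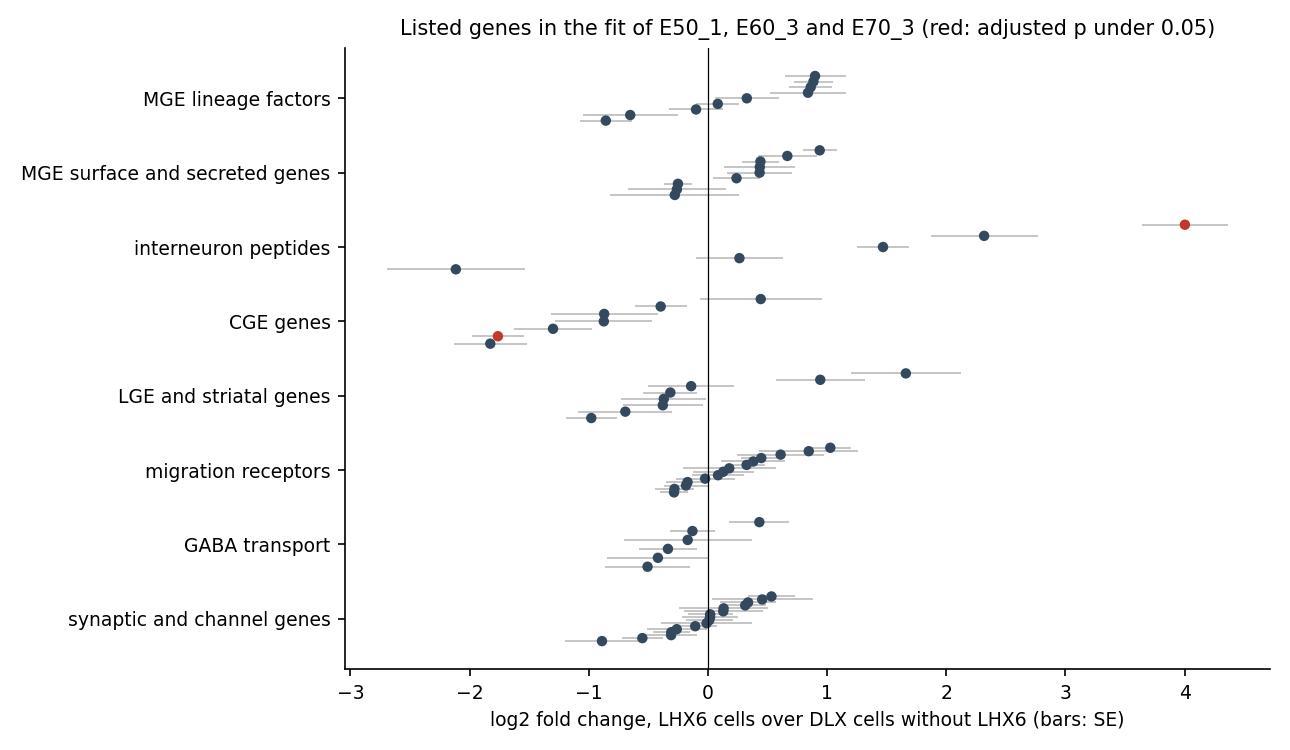
Log2 fold change of LHX6 cells over DLX cells without LHX6 (x axis, bars are SE) for each tested gene of 8 lists (y axis) in the edgeR fit of E50_1, E60_3 and E70_3. Red points passed an adjusted p of 0.05, which are SST at 4.0 among the peptides and ADARB2 at −1.76 among the CGE genes. None of the 9 tested MGE lineage factors passed, and 1 of the 7 tested CGE genes did.

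The remaining neuronal lists differed little. Of the 12 genes listed for the lateral ganglionic eminence and striatum, 8 were tested and none passed, with a median of −0.34. PBX3, a homeobox factor, was lower in all 5 libraries (−0.84 ± 0.15, edgeR adjusted p of 0.0865). None of the 6 GABA transport genes tested passed, and SLC32A1, the vesicular GABA transporter, stood at 28.2, 19.4 and 25.2 CPM in LHX6 cells against 95.8, 19.3 and 19.3 CPM. None of the 16 synaptic and channel genes tested passed, with a median of 0.01. KCNC2, a potassium channel of fast-spiking cells, had an estimate of 0.53 ± 0.19.

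Outside the lists, 3 genes passed in the 3 libraries. ID3, an inhibitor of basic helix-loop-helix factors, was 250.3 against 36.3 CPM in E50_1, 77.6 against 7.49 CPM in E60_3 and 73.5 against 15.1 CPM in E70_3 (2.82 ± 0.28, edgeR adjusted p of 0.0194). THRB, the thyroid hormone receptor beta gene, was 37.5 against 169 CPM, 104 against 281 CPM and 96.6 against 298 CPM in the same order (−1.63 ± 0.20, adjusted p of 0.0429). THRB was also lower in E70_1 and E70_2, while ID3 was 32.8 against 51.4 CPM in E70_2. APOA1, an apolipoprotein gene, was 1157 against 26.4 CPM in E50_1, 23.7 against 0.535 CPM in E60_3 and 0 against 1.68 CPM in E70_3, so its call rests on the first 2 libraries. It is named because few genes passed, although it did not move 1 way in every library. APOA1 was tested in only 3 alternatives and called in 2 of them. It was not among the genes called with DLX needed on both sides or without the top cell of each gene. With DESeq2 on the same libraries ID3 and THRB were also called, with adjusted p of 4.57e-07 and 0.000663. Of the genes called in the count of cells, SORCS3, a sorting receptor, and SHISA9, an AMPA receptor partner, are named after their values were seen. SORCS3 fell in level from 147 to 22.6 CPM in E60_3 and from 172 to 21.0 CPM in E70_3, and SHISA9 from 219.95 to 30.2 CPM and from 291 to 60.9 CPM.

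Markers of other cell types also differed between LHX6 cells and DLX cells. The 4 vascular markers found in the files summed to 447 CPM in the LHX6 cells of E50_1 against 49.6 CPM in DLX cells, and to 193 against 32.6 CPM in E60_3, but to 14.7 against 27.6 CPM in E70_3. PECAM1, a vascular marker, was 225 against 9.91 CPM in E50_1. With a DLX UMI needed in LHX6 cells too, PECAM1 was 12.2 CPM in E50_1 and 15.4 CPM in E60_3, and ID3 was still called (2.10 ± 0.36, edgeR adjusted p of 0.0314). TOP2A, a gene of dividing cells, was 125 against 0 CPM in E50_1, 61.4 against 33.2 CPM in E60_3 and 2.10 against 15.9 CPM in E70_3. Microglia markers were lower in the LHX6 cells of E60_3, at 113 against 361 CPM, and excitatory neuron markers were 340.3 against 176 CPM in E70_3. Astroglia markers were lower in the LHX6 cells of E60_3 and E70_3, at 393 against 485 CPM and 256 against 449 CPM, and 344 against 169 CPM in E50_1. Hemoglobin HBB was 20394 and 17366 CPM in E50_1, and 3184 CPM in the DLX cells of E60_3 against 280.1 CPM in the LHX6 cells. The part of these cells in the differences was not tested beyond the DLX rule.

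To compare stages, the share of LHX6 cells was set side by side for the E60 and E70 libraries of whole cells. The 3 E60 libraries averaged 0.897% ± 1.44 (SD) and the 3 E70 libraries averaged 6.09% ± 3.59 (SD). E60_3, at 2.56%, was above E70_3, at 2.05%, so the stages overlapped. Thinned to 3000 UMIs they did not, with 0.519% in E60_3 as the highest E60 share against 1.04%, 2.30% and 1.06% at E70, nor did they with at least 2 LHX6 UMIs (difference 2.65 percentage points). Both of these gave an exact permutation p of 0.1, the smallest possible. The difference of 5.19 percentage points had p = 0.2 in an exact two-sided permutation test, where 0.1 is the smallest p that 3 against 3 libraries allow. The shares of E70_1 and E70_2 rest on LHX6 that was common outside GAD cells, and E60_1 and E60_2 held 0 and 1 DLX cells. The part of either in the difference was not tested. Less the share of cells without GAD UMIs that held LHX6, the LHX6 share of GAD cells averaged 7.85% ± 13.5 in the E60 libraries against 21.2% ± 3.13 in those of E70 (exact permutation p = 0.3).

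No test of gene levels between stages was possible, since E60_3 was the only E60 library with at least 20 LHX6 cells. Between E60_3 and E70_3, 1 library each, LHX6 cells had 104 and 96.6 CPM of THRB, 436 and 473 CPM of SOX6 and 2323 and 3025 CPM of NXPH1. NR2F2 stood at 92.6 and 16.8 CPM, TOP2A at 61.4 and 2.10 CPM, and RELN, a secreted glycoprotein of SST and other interneurons, at 591 and 122 CPM. GRIN2B, an NMDA receptor subunit, stood at 468 and 1088 CPM. These genes were chosen after their values were seen, and the differences have no replicate check.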

How the data were processed

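Cells and nuclei were captured with the 10X Genomics version 2 chemistry. The authors mapped the reads with Cell Ranger and STAR to Sscrofa11.1, introns included, and deposited 1 table of raw UMI counts per library, without normalization. Each file holds 22452 genes. The thresholds were applied to these counts, and UMIs were summed per library over LHX6 cells and over DLX cells. LHX6, GAD1, GAD2 and the 4 DLX genes were left out of the tests. edgeR 4.0.16 in R 4.3.3 was used (filterByExpr, TMM, glmQLFit and glmQLFTest, library as block, libraries with at least 20 cells on each side), with DESeq2 1.42.0 as an alternative. The SE of an edgeR fold change is its size over the square root of F. In the summed counts the p-values and SE rest on a spread between libraries that edgeR partly borrows from other genes. They do not measure the spread of the named gene alone, and APOA1 passed although it was lower in 1 of the 3 libraries. In the count of cells the p-values do not follow F alone. Over 3 libraries MAF (0.87 ± 0.13) and NXPH1 (0.60 ± 0.089) had like ratios of size to SE there. Their unadjusted edgeR p were 1.55e-06 and 9.5e-05. Each library's LHX6 cells and DLX cells share brains and capture, which is where the pairing comes from. The tests were run on simulated data first. CPM is UMIs per 1000000 UMIs of the summed cells. Intervals are exact binomial (Clopper-Pearson). No doublets were removed; Scrublet (scanpy 1.11.5) was an alternative and marked 3 of 8171 cells in E60_1 and 0 of 3479 in E60_2, so it did not work there, and 9 of 2696 in E60_3.

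The cells, the 19 gene lists and the comparisons were chosen with earlier results of these data known, so a list's count or median is a description. Listed genes were counted by list and named where they passed, define the list or were at 0; genes outside the lists were to be named among the 10 largest and 10 smallest changes past the threshold with 1 direction in every library. Of 169 listed genes 166 were in the files. Positions and promoter letters are from RefSeq for Sscrofa11.1, read from the genome of that build.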

Additional observations from a re-analysis of the deposited data

Results flagged for a closer look

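The values given here came from libraries that no comparison used and were above the 3 counts that a count of 0 allows. In the nuclei of E70_nc 15 nuclei passed the LHX6 and GAD thresholds, under the 20 needed for a test, and 2 of them held a DLX UMI. In the adult whole cells 18 of 656 cells without a GAD UMI held LHX6 (2.74%), with a median of 6694.5 UMIs, and 1 cell passed both thresholds. In the adult nuclei 11 of 2422 nuclei without a GAD UMI held LHX6 (0.454%), with a median of 681 UMIs, and 3 nuclei passed both thresholds. No group had the 4 to 10 libraries needed to look for a single library far from the others.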

How the results depend on the processing

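Over 5 libraries the main test called 1 gene, SST. The count stayed at 1 with DESeq2 size factors and without Scrublet calls. It was 18 with DESeq2, 209 with no low-count filter, 0 against all GAD cells without LHX6 (548 genes at p under 0.05), 2 with at least 2 LHX6 UMIs and 22 with at least 4 GAD UMIs. With no replicate block it was 0 (edgeR, 146 genes at p under 0.05). Leaving out 1 library gave 1 to 5 calls, the 5 without E70_2 and 3 without E70_3. Alternatives added after seeing the data gave 5 calls with E50_1, E60_3 and E70_3 alone, 18 with E60_3 and E70_3 alone, 16 with DESeq2 on the 3 libraries, 30 with cells thinned to 3000 UMIs, 5 with DLX needed in both and 24 with that rule in the 3 libraries. The count of cells gave 11 calls over 5 libraries and 20 over 3, and leaving out the top cell of each gene gave 13 and 34. Genes called differ between these settings, the cause was not tested, and SST was called in 17 of the 20 alternatives that tested it, with log2 fold changes from 2.80 to 4.48 and adjusted p from 3.13e-64 to 0.9999. Its call was lost with no block, against all GAD cells and with at least 2 LHX6 UMIs. Over 19 genes named above, 306 of 389 values kept their side of the threshold, 80 passed it only in the alternative, 3 lost it and 0 changed sign past it.

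The E70 share was above the E60 share in each alternative run, and no test over 3 against 3 libraries could pass 0.05. The exact permutation p was 0.1, the smallest possible, with thinned cells, with at least 2 LHX6 UMIs and without E70_3. The exact sign-flip test over replicate numbers as a replicate block gave p = 0.5 (smallest possible 0.25) for a difference of 5.19 percentage points. Leaving out 1 library gave differences of 3.78 to 7.21 points. The replicate numbers of E60 and E70 name samples only. The fits between stages were not run, nor was one without E70_nc, which no fit held, and thinning with 20 cells a side left 1 library.

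Counts of 23 to 69 LHX6 cells, most with 1 LHX6 UMI, limit every level given here. The absence of an LHX6 UMI does not show that a cell lacks LHX6, so missed LHX6 cells among the DLX cells were not counted.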
